A study of Mus musculus with 161 samples.

Results

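Of the 57 bone marrow (BM) monocytes in this single-cell series, 16 carried transcript of at least 1 of the neutrophil serine proteases Elane, Prtn3 and Ctsg above 10 TPM (the share of a cell's transcripts that a gene takes, scaled to a fixed total). They are called retaining cells here, and the 41 BM monocytes with all 3 genes at or below 10 TPM are called the other cells. The 16 cells are 28.1% of the BM monocytes (95% exact Clopper-Pearson interval 16.97 to 41.5%) among 161 cells in all. The cells were chosen by the TPM of these 3 genes, so the levels of the proteases are given as a description. The other populations were 66 common monocyte progenitors (cMoP) and 38 blood monocytes.

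All cells came from untreated C57BL/6 mice and were captured on the Fluidigm C1 system, which makes 1 oligo(dT)-primed library per cell. The marrow gates took lineage-negative cells with CD115 and Ly6C and without CD135, and CD117 divided them into cMoP (CD117+) and BM monocytes (CD117-). The blood gate took CD115+ CD11b+ monocytes in which Ly6C was high. The labels name no animal, so the cells are not replicates and each population is 1 sample. No test between the sets was therefore run, and every interval covers the counting of cells only.

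The neutrophil serine proteases are made in quantity at the promyelocyte stage, when myeloid precursors fill their primary (azurophil) granules. Elane encodes neutrophil elastase, Prtn3 proteinase 3 and Ctsg cathepsin G, and Mpo encodes the myeloperoxidase of the same granules. Monocyte progenitors also transcribe these genes, and the transcripts decline as the cells mature. A marrow monocyte in which they are still detected can thus be set beside its neighbours for proliferation, granule and maturation genes.

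Elane and Prtn3 lie 3072 bases apart on chromosome 10 of GRCm38, both on the plus strand (Prtn3 10:79874476-79883174 and Elane 10:79886247-79888215, GENCODE M21). Ctsg lies on chromosome 14 (14:56099881-56102574, minus strand). The stretches before their starts, from RefSeq on GRCm38.p6, are shown because the 3 genes chose the cells, and to set the neighbours beside Ctsg. Capitals mark 3 strings that were chosen after the sequences had been seen: AGGAAGT, the core of many ETS family sites, CAACGG, a MYB site core, and TATAA, found in the core promoter element of that name.
Elane, chr10:79886198-79886246, plus strand: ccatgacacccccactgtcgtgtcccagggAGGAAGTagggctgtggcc
Elane, chr10:79886261-79886285, plus strand: CAACGGcctctggttccagcTATAA
Prtn3, chr10:79879543-79879609, plus strand: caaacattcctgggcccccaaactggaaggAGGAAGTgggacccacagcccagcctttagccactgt
Prtn3, chr10:79879611-79879639, plus strand: CAACGGctcccggcagagctgggcTATAA
Ctsg, chr14:56102744-56102810, minus strand: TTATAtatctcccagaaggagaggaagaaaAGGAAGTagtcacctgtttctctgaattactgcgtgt

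Counted back from the RefSeq start, AGGAAGT began 84 bases before Elane, 94 before Prtn3 and 206 before Ctsg. CAACGG began 51 bases before Elane and 56 before Prtn3, and the 250 bases before Ctsg did not hold it. TATAA began 31 bases before Elane and 32 before Prtn3, while Ctsg held it only on the opposite strand, 236 to 232 bases before the start. In GENCODE the first exon of Elane, and that of the protein-coding Prtn3 transcript Prtn3-201, begin 65 and 53 bases farther upstream, so TATAA lies inside that exon. The gene start of Prtn3 given above is that of another, longer transcript. Over 32851 mouse promoters of 250 bases, searched on both strands, 7.69% held AGGAAGT, 4.05% CAACGG and 22.8% TATAA, and 18 promoters (0.0548%) held all 3 strings. A match describes the sequence only.

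Among the retaining cells, Elane lay above 10 TPM in 10, Prtn3 in 10 and Ctsg in 6. Elane alone chose 4 cells, Prtn3 alone 4 and Ctsg alone 2. Another 2 cells held Elane with Prtn3, and 4 held all 3. Elane and Prtn3 were thus together in 6 of the 14 cells with either gene. Ctsg occurred without Elane and Prtn3 above 10 TPM in BM monocytes 2 and 4, and there Prtn3 was listed at 9.99 and 5.11 TPM.

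The threshold cut through an almost empty range. Just inside it, BM monocyte 4 had Ctsg at 19.1 TPM and BM monocyte 27 had Elane at 27.7 TPM, and the next cell followed at 108 TPM (Prtn3 in BM monocyte 7). Just outside it, the highest values of any of the 3 genes in the other cells were 3.33, 1.78, 1.58 and 1.4 TPM. Of the 41 other cells, 37 had all 3 genes listed at 0.

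Where detected above 10 TPM, Elane ranged from 18.3 to 1335 TPM with a median of 209 TPM in the retaining cells. Prtn3 ranged from 108 to 476 TPM (median 233) and Ctsg from 19.1 to 569 TPM (median 364). BM monocyte 22 had the highest Elane, 1335 TPM, with Prtn3 at 398 TPM and Ctsg at 513 TPM. BM monocyte 10 had all 3 at similar levels, with Elane at 438 TPM, Prtn3 at 476 TPM and Ctsg at 569 TPM. BM monocyte 33 had Prtn3 at 468 TPM, Ctsg at 249.9 TPM and Elane at 215 TPM. BM monocyte 37, the other cell with all 3, had Ctsg at 207 TPM but Elane at 19.9 TPM. The order of the proteases therefore differed from cell to cell.

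The progenitors held far more of each transcript. In cMoP the medians were 3525 TPM for Elane, 1637 TPM for Prtn3 and 1038 TPM for Ctsg, and each of the 66 cells had at least 1 above 10 TPM. The cMoP mean was 22.1 times the retaining mean for Elane, 10.1 times for Prtn3 and 8.69 times for Ctsg. Without BM monocyte 22 the ratio for Elane was 34.7. Single values overlapped, since the lowest cMoP values were 9.34, 70.5 and 3.85 TPM. In blood, 2 of 38 monocytes passed the threshold (5.26%, exact interval 0.644 to 17.7%), both through Prtn3 alone at 44.8 and 340.1 TPM, and Elane was listed at 0 in all 38.

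Mpo was rarely detected in the marrow monocytes. It was listed at 0 in 14 of the 16 retaining cells, at 1.68 TPM in BM monocyte 10 and at 89.7 TPM in BM monocyte 33, and at 0 in all 41 other cells. In cMoP its lowest value was 917 TPM and its mean 10734 TPM. The mean of Mpo over the mean of Elane was 2.33 in cMoP and 0.0275 in the retaining cells, where Elane is a gene that chose the cells. The Mpo mean of the retaining cells was 5.71 TPM, and 0.112 TPM without BM monocyte 33. Ms4a3, the membrane protein gene that the series follows, reached at most 8.29 TPM in a retaining cell (BM monocyte 27) and 7.03 TPM in another cell. Kit, which encodes the CD117 that the BM monocyte gate excludes, was listed at 0 in all 57.

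**Figure D1:**
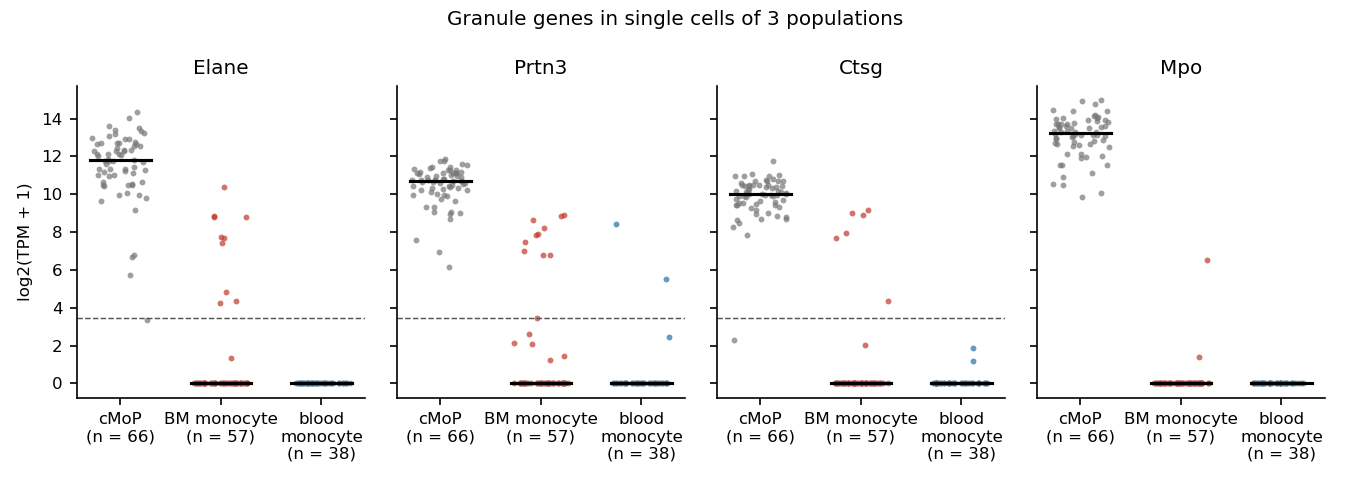
Elane, Prtn3, Ctsg and Mpo in every cell of the 3 populations, as log2(TPM + 1) on a linear axis. Each point is 1 cell, the bar is the median, and the dashed line is the 10 TPM threshold. For each protease the BM monocytes split into cells at or below 9.99 TPM, most listed at 0, and cells between 18.3 and 1335 TPM. Only 1 BM monocyte had Mpo above 10 TPM.

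The genes of the sort gate were read as a check of the label. Ly6c2, which encodes Ly6C2, ranged from 3139 to 12756 TPM (median 8154) in the retaining cells and from 65.6 to 24635 TPM (median 4360.4) in the other cells. The retaining cells lay within the range of the others, with a narrower spread, and the difference in mean log2(TPM + 1) was 1.16. Csf1r, which encodes CD115, had medians of 33.4 and 47.2 TPM and a difference of -0.88. Flt3, which encodes CD135, stayed at or below 4.21 TPM in the retaining cells and 8.75 TPM in the others.

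The libraries of the retaining cells were richer in detected genes. They had 4031 to 5887 genes above 1 TPM (median 5241.5), against 3031 to 5938 (median 4459) in the other cells, and 15 of the 16 lay above the other cells' median. The depth behind each value is unknown because TPM does not record it, and a value of 0 need not mean that a transcript was absent. S100a9, an abundant myeloid gene, is listed at 0 in all 161 cells, and the cause was not tested. The part of gene number in the differences was examined only by repeating them in cells of like gene number (12 retaining and 15 other cells). Mitochondrial transcripts took a median of 4.86% of TPM in the retaining and 4.17% in the other cells. All 57 BM monocytes share 1 flow cell and lane with the blood monocytes, while 60 of the cMoP were run on another. The retaining cells carried 9 of the 12 first and 8 of the 8 second index sequences found among the BM monocytes. No doublet caller was run, and the part of cell pairs in these results was not tested.

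Differences below are the mean of log2(TPM + 1) over the 16 retaining cells minus that over the 41 other cells. Low genes are understated. Where many cells are listed at 0, a difference also depends on the share of cells with the gene and is not a ratio of mean TPM. For Ndufv2 the difference was 4.60, while the log2 ratio of mean TPM was 1.31. Measured genes are those that exceeded 1 TPM in 10% or more of the 57 cells. Of 10910 measured genes, 471 were higher by at least 2 units (4.32%) and 15 were lower by at least 2 units (0.137%), and the median over all of them was 0.22. In all, 64.2% of the measured genes were higher by any amount, 54.3% in cells of like gene number, 61.1% in non-cycling and 55.2% in cycling cells (those with Mki67 or Top2a above 10 TPM). In cells of like gene number the median was 0.08. Taken as the log2 ratio of mean TPM, which weights the cells with high values, 926 genes were higher and 1323 lower by 2 units, and the median was -0.11.

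Replication genes stood out from that background. Of the 43 S phase genes listed (replication licensing, nucleotide synthesis and the fork), 39 were measured, and all 39 were higher in the retaining cells. Their median difference was 1.94, and 18 of the 39 were higher by at least 2 units, against 4.32% of all measured genes. The median was 1.61 with 37 of 39 higher in cells of like gene number.

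Tyms, the thymidylate synthase that makes dTMP for DNA, ranged from 0 to 1114 TPM (median 243) in the retaining cells and from 0 to 2009.8 TPM (median 2.84) in the others. The ranges overlap, but 10 of 16 retaining cells lay above 10 TPM against 12 of 41 others, and the difference was 3.86. Mcm7, a subunit of the replicative helicase, lay above 10 TPM in 9 of 16 and 5 of 41 cells and differed by 3.15. Its partner Mcm6 lay above 10 TPM in 7 of 16 and 4 of 41 cells, with a difference of 2.97. Tipin, part of the fork protection complex, differed by 3.15 over all cells and by 0.19 among cells without Mki67 or Top2a.

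Each cell was summarised by its mean log2(TPM + 1) over the 39 measured S phase genes. Retaining cells ranged from 0.91 to 6.54 (median 2.34) and other cells from 0.27 to 3.53 (median 0.97). In 14 of the 16 retaining cells the S phase mean exceeded the other cells' median, and in 6 it exceeded that of every other cell. Of those 6, 5 held at least 2 of the proteases: BM monocytes 10, 22, 33 and 37 with all 3, and BM monocyte 49 with Elane and Prtn3. The remaining one, BM monocyte 31, held Elane alone at 203 TPM. At the other end, the S phase mean was 0.91 in BM monocytes 7 and 19, which held Prtn3 alone at 108.07 and 240.98 TPM.

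S phase values differed with the number of proteases detected. The 6 cells with 2 or 3 proteases had S phase means of 2.44 to 6.54 (median 5.29), and the 10 cells with 1 had 0.91 to 5.02 (median 1.23). Cells were called cycling when Mki67, a nuclear protein of proliferating cells, or Top2a, the topoisomerase of chromosome segregation, lay above 10 TPM. By that rule 8 of 16 retaining cells were cycling (50%, exact interval 24.7 to 75.3%) and 15 of 41 other cells (36.6%, 22.1 to 53.1%), intervals that overlap widely. Of those 15 other cells, 9 lay at or below 100 TPM for both genes, and their mean log2(TPM + 1) over the G2 and M phase genes was 1.07 to 1.63, beside 0.66 to 2.52 in non-cycling other cells. At 100 TPM, a level chosen after the values were seen, 7 of 16 retaining cells (43.75%, 19.8 to 70.1%) and 6 of 41 others (14.6%, 5.57 to 29.2%) were cycling. These intervals overlap as well. Within the retaining cells, 5 of the 6 with 2 or 3 proteases were cycling (83.3%, 35.9 to 99.6%) and 3 of the 10 with 1 (30%, 6.67 to 65.2%). Both groups are small and their intervals overlap. More genes were also detected in the cells with 2 or 3 proteases, a median of 5559 against 5169.5 in those with 1, and the part of that difference was not tested.

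Mitotic genes were higher to a lesser degree, and not in every subset. Of 53 G2 and M phase genes, 50 were measured and 48 were higher, beside 64.2% of all measured genes. The median difference was 0.85, and 8 were higher by at least 2 units, beside 4.32% of all measured genes. In cells of like gene number the median was -0.35 and 19 of 50 were higher, beside 54.3% of all measured genes there. Among non-cycling cells the median was -0.02. Ccnb2, the cyclin B2 that drives entry into mitosis, lay above 10 TPM in 10 of 16 retaining and 11 of 41 other cells and differed by 2.57. Cdca3, which triggers mitotic entry through protein degradation, differed by 2.77 (9 of 16 and 8 of 41 cells above 10 TPM). Aurkb, the kinase of the chromosomal passenger complex, differed by 2.44, and Anp32e, a histone chaperone, by 2.46. Per cell, the G2 and M mean ran from 0.72 to 6.62 in the retaining cells and from 0.66 to 6.99 in the others, so that, in contrast to the S phase mean, no retaining cell exceeded the highest other cell.

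Among the cycling cells alone, 8 retaining against 15 other, the S phase median was 2.94 with 38 of 39 genes higher. The G2 and M median was 1.41 with 40 of 50 higher. Of all measured genes, 55.2% were higher among cycling cells. The cycling retaining cells had S phase means of 0.91 to 6.54 (median 5.15) and the cycling other cells 0.57 to 3.53 (median 1.12). The cells with Mki67 or Top2a above 100 TPM, 7 retaining against 6 other, were also compared. There the S phase median was 2.86 and the G2 and M median -0.78. Their S phase means were 3.03 to 6.54 (median 5.28) in the retaining and 0.94 to 3.53 (median 2.97) in the other cells, and their G2 and M means 2.58 to 6.62 (median 5.43) and 4.10 to 6.99 (median 6.53). Tyms ranged from 376 to 1114 TPM (median 935) in these retaining cells and from 1 to 2009.8 TPM (median 43.9) in these other cells. Among the 8 and 26 non-cycling cells the S phase median was 0.46 with 27 of 39 genes higher, beside 0.21 for all measured genes there. In non-cycling retaining cells Mcm6 still reached 421 TPM, and it lay above 10 TPM in 3 of 8 cells against 1 of 26.

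Other genes of proliferating cells had the same direction, with 16 of 17 measured higher, beside 64.2% of all measured genes. Their median was 1.74 over all cells and 1.21 in cells of like gene number (14 of 17 higher). Among non-cycling cells it was 0.40 (12 of 17 higher). Stmn1, a tubulin-sequestering protein, ranged from 0 to 2239 TPM (median 579.9) in the retaining cells against 0 to 3145 TPM (median 1.28), a difference of 4.07. Hmgn2, a nucleosome-binding protein of open chromatin, was above 10 TPM in 16 of 16 retaining cells (26.99 to 1998 TPM, median 764) and in 24 of 41 others (median 255), a difference of 3.95. Its lowest retaining values were in non-cycling cells, whose median was 431 TPM against 18.1 TPM in non-cycling other cells. Tuba1b, an alpha-tubulin, differed by 3.76 and Ran, the nuclear transport GTPase, by 3.37. In cells with Mki67 or Top2a above 100 TPM the differences were 0.18 for Stmn1, 0.47 for Hmgn2 and -0.28 for Tuba1b. In cells of like gene number they were 1.46, 2.79 and 1.58. Hmgn2 and the tubulins have close copies in the genome between which the authors' counting could divide reads.

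**Figure D2:**
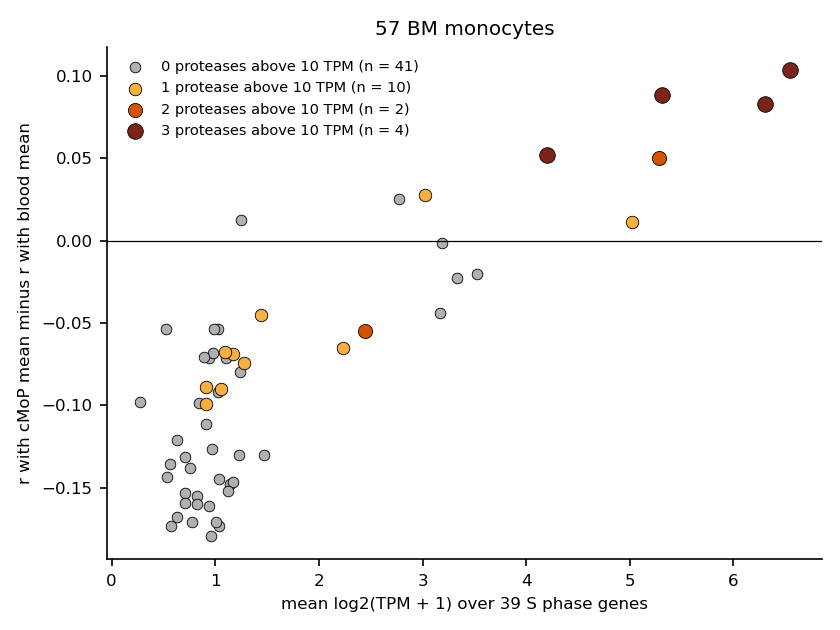
Each point is 1 of the 57 BM monocytes, placed by its mean log2(TPM + 1) over 39 S phase genes and by its Pearson correlation with the cMoP mean minus that with the blood monocyte mean. Colour and size give the number of proteases above 10 TPM. The 4 cells with all 3 proteases lie at S phase means of 4.2 to 6.54 and above 0 on the vertical axis, while most cells with 1 protease lie among the other cells.

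The retaining cells were also nearer to the progenitor over the transcriptome. Each cell was correlated with the mean cMoP and the mean blood profile over 10910 genes, without the 3 proteases. The median r with the cMoP mean was 0.593 (0.531 to 0.679) in retaining and 0.496 (0.434 to 0.621) in other cells, and the median r with the blood mean was 0.621 in both. In 7 of 16 retaining cells r was higher with cMoP than with blood, against 2 of 41 other cells. All 7 were cycling, and so were the 2 other cells, BM monocytes 40 and 48, with Top2a at 1215 and 1064 TPM. Without the proliferation genes (10805 genes left) the counts were 6 of 16 and 2 of 41. The non-cycling retaining cells were all nearer to blood, at -0.090 to -0.045 for r with cMoP minus r with blood, beside -0.18 to -0.054 in non-cycling other cells. The cMoP had a median of 6661.5 genes above 1 TPM, and the part of gene number in these correlations was not tested.

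The other genes of the primary granule did not follow the 3 proteases as a group. Of 16 listed, 9 were measured, 6 were higher and 3 lower, a share near that of all measured genes, with a median of 0.17. Leaving out any 1 retaining cell gave medians of 0.038 to 0.41, and 14 of the 16 cells (all but BM monocytes 2 and 31) moved it by more than 1.5 times. Bpi, Cd63 and Nkg7 were listed at 0 in all 57 cells. Serpinb1a, described below with the protease inhibitors, had the largest difference of this list, 2.76. Fcnb, a secreted ficolin stored in granules, came next. It ranged from 0 to 818 TPM (median 24.9) in the retaining cells and from 0 to 716 TPM (median 0) in the others, and lay above 10 TPM in 8 of 16 and 6 of 41 cells, a difference of 2.59. Its highest value, 818 TPM, was in BM monocyte 22, which also had the most Elane. Fcnb was above 1 TPM in 9 of the 10 cells with Elane above 10 TPM and in none of the 6 without, beside 9 of the 41 other cells.

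That pairing with Elane was noticed after the values were seen. The 6 retaining cells without Elane above 10 TPM, BM monocytes 2, 4, 6, 7, 16 and 19, all had Fcnb listed at 0. BM monocyte 33, with Elane at 215 TPM, was the exception among the Elane cells, with Fcnb at 0. Fcnb lies on chromosome 2 (2:28076378-28084885, minus strand), away from Elane.

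Of 12 measured genes for protease activation, packaging and inhibition, 8 were higher and 4 lower, a share near that of all measured genes, with a median of 1.0 (0.37 in cells of like gene number). Serpinb1a, a cytosolic inhibitor of elastase, cathepsin G and proteinase 3, ranged from 0 to 449 TPM (median 29.7) in the retaining cells against 0 to 571 TPM (median 0), and was above 10 TPM in 10 of 16 and 9 of 41 cells. It differed by 2.76 over all cells and by 1.06 among non-cycling cells, and all 6 cells with 2 or 3 proteases had it above 10 TPM. Slpi, the secreted leukocyte protease inhibitor, was above 10 TPM in all 16 retaining cells (11.8 to 2691 TPM, median 229.7) and in 26 of 41 others (median 58.4), a difference of 2.22. Cstb, the cystatin that inhibits cysteine cathepsins, was also above 10 TPM in all 16 (18.2 to 1204 TPM, median 374) and in 30 of 41 (median 91.7), a difference of 2.49. Lyst, which regulates lysosome and granule size, differed by 1.72. Srgn, the proteoglycan on which granule proteases are packed, went the other way, with medians of 133 and 281 TPM and a difference of -1.55.

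Of 30 genes of secondary granules and neutrophil maturation, 13 were measured and 13 were listed at 0 in all 57 cells, among them Ltf, Camp, Ngp, Mmp9 and Retnlg. Of the 13 measured, 9 were higher, a share near that of all measured genes, with a median of 0.42. That median was -0.21 among cycling cells, and 0.66 without BM monocyte 10, 16 or 37. Csf3r, the G-CSF receptor, was lower in the retaining cells, above 10 TPM in 2 of 16 against 18 of 41 with a difference of -2.18. Ly6g ranged from 38.03 to 108 TPM in the retaining cells and from 0 to 235 TPM in the others, a difference of 1.51, and may share reads with its abundant paralogue Ly6c2. Anxa1, an anti-inflammatory annexin, differed by 1.4. Of 10 measured genes of neutrophil-like monocytes, 9 were higher with a median of 1.26, beside 64.2% of all measured genes. The list includes Fcnb, Slpi and Ly6g. Its median was 0.82 in cells of like gene number (9 of 10 higher) and 0.82 in cycling cells (6 of 10). In non-cycling cells it was 1.95 (8 of 10). The summed TPM of the list was lower in the retaining cells, with a median of 3015 against 4296 in the other cells.

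**Figure D3:**
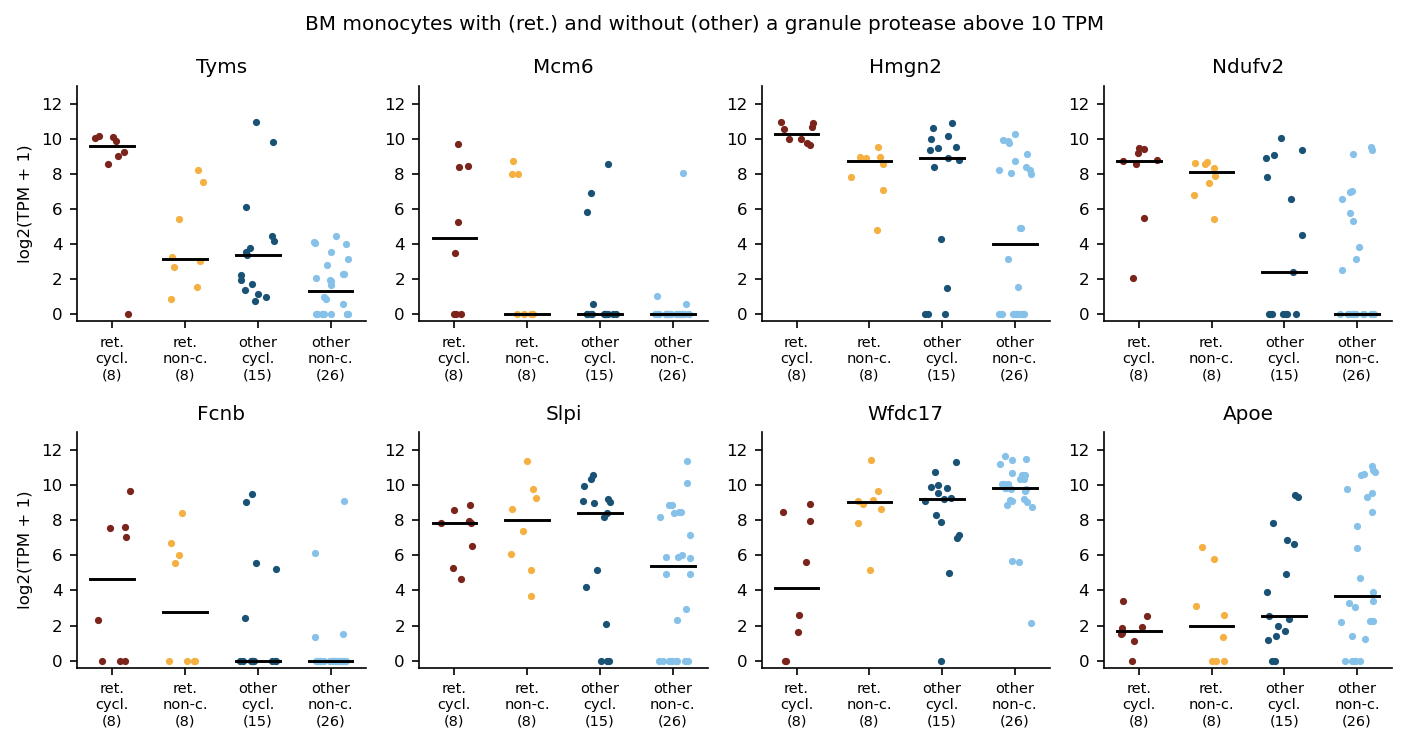
Values of 8 genes, as log2(TPM + 1), in retaining (ret.) and other cells, each divided into cycling (cycl.) and non-cycling (non-c.) cells. Each point is 1 cell, the bar is the median, and the number of cells is in parentheses. The medians of Tyms and Hmgn2 are highest in cycling retaining cells, the medians of Fcnb and Ndufv2 are higher in both retaining subsets than in their counterparts, and the median of Wfdc17 is lowest in cycling retaining cells.

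Genes of the classical monocyte were divided. All 38 listed were measured, with 17 higher, 21 lower and a median of -0.24. It was -0.14 without BM monocyte 10, -0.15 without BM monocyte 31 and -0.02 in cells of like gene number. The median was 0.25 with 23 of 38 higher among non-cycling cells, and -0.47 with 9 of 38 higher among cycling cells. Of the 15 cycling other cells, 9 lay at or below 100 TPM for Mki67 and Top2a. Among cells above that level the median was -0.30. Ccl6, a chemokine of mature myeloid cells, was present in nearly every cell. It ranged from 0 to 4807 TPM (median 695) in the retaining cells and from 264 to 8441 TPM (median 2136) in the others, a difference of -2.52. In the 6 cells with 2 or 3 proteases its median was 182 TPM, in the 10 with 1 it was 1123 TPM. Wfdc17, a secreted protein of activated phagocytes, had medians of 295 and 861 TPM and a difference of -2.43, which was -3.89 among cycling and -0.67 among non-cycling cells. In cells with Mki67 or Top2a above 100 TPM it was -2.85. Clec4a3, a lectin receptor, differed by -2.08. S100a10, the annexin A2 partner, was higher by 1.88 (231 to 1435 TPM in the retaining cells, 0 to 1688 TPM in the others).

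Other genes with large negative differences were receptors, lysosomal proteins and enzymes. Sirpb1c, a signal-regulatory receptor with close paralogues, was above 10 TPM in 7 of 16 retaining and 33 of 41 other cells, with medians of 0.86 and 310.2 TPM and the most negative difference among the named genes, -2.95. It was at most 1.2 TPM in the 6 cells with 2 or 3 proteases and listed at 0 in all 66 cMoP, while blood monocytes averaged 735 TPM. Plbd1, a lysosomal phospholipase-like protein, had medians of 79.8 and 479.9 TPM and a difference of -2.03, which was -3.71 among cycling and -0.33 among non-cycling cells. In cells with Mki67 or Top2a above 100 TPM it was -3.56. Marcks, an actin-binding substrate of protein kinase C, was above 10 TPM in 5 of 16 and 27 of 41 cells, a difference of -2.62. Hpgd, the prostaglandin-degrading dehydrogenase, was above 10 TPM in 1 of 16 and 16 of 41 cells (-2.0). Msr1, a scavenger receptor, differed by -1.89, Rasgrp4, a Ras activator, by -1.95 and Tcp11l2 by -2.15.

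Apoe, the lipid carrier apolipoprotein E, ranged from 0 to 88.3 TPM (median 2.28) in the retaining cells and from 0 to 2223 TPM (median 9.58) in the others. Only 2 of 16 retaining cells, both non-cycling, lay above 10 TPM, against 20 of 41 others. The difference was -2.63 over all cells, -2.27 among cycling and -2.70 among non-cycling cells. It was smaller, -0.64, in cells with Mki67 or Top2a above 100 TPM, and -0.96 in non-cycling cells of like gene number. Apoe was counted with the Ly6C-low monocyte genes, the profile to which blood monocytes convert. Of the 12 measured genes of that list, 4 were higher, with a median of -0.31. Nr4a1, the nuclear receptor on which Ly6C-low monocytes depend, was above 10 TPM in 1 of 16 and 11 of 41 cells (-1.53). Itgal, the LFA-1 alpha chain, differed by 1.12.

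Genes of the monocytes that lean towards dendritic cells were lower in 10 of 14 measured, with a median of -0.50. Cd209a, a lectin that marks them, was listed at 0 in all 16 retaining cells, for which the exact interval reaches 20.6% of cells, and lay above 10 TPM in 8 of 41 others, reaching 1524 TPM. Of 9 measured MHC class II presentation genes 7 were lower, with a median of -0.66 that was -0.16 in cells of like gene number. H2-Eb1, a class II beta chain, was at most 3.51 TPM in the retaining cells and above 10 TPM in 3 of 41 others, up to 9468 TPM. Ifi30, a lysosomal reductase of antigen processing, went the other way at 1.31, as did Tmem176a at 1.52.

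Myeloid transcription factors had no common direction, with 10 of 21 higher and a median of -0.01. Spi1, which encodes PU.1, differed by 0.93 and Irf7, the interferon regulatory factor, by -1.26. Stem and progenitor genes were higher in 6 of 9 measured, a share near that of all measured genes, and lower in 3, with a median of 0.55. In cells of like gene number 5 of 9 were higher. Cdk6, a G1 kinase of haematopoietic progenitors, was above 10 TPM in 9 of 16 and 10 of 41 cells (1.72), and the nucleolar genes Nop58 (1.56), Npm1 (1.44) and Nop56 (1.39) were higher too. Myb, a progenitor transcription factor too rarely detected to be measured, was named after its values were seen. It lay above 10 TPM in 3 of the 8 cycling retaining cells, up to 188 TPM, and at most at 4.94 TPM in any other cell. Those 3 cells were among the 6 with 2 or 3 proteases. Because Myb was picked from its values in these same cells, its pattern adds no independent support.

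Of 14 measured receptors of marrow retention and exit, 10 were higher, with a median of 0.29 that was near the 0.22 of all measured genes. In cells of like gene number 7 of the 14 were higher. Cxcr4, the receptor that holds cells in the marrow, was above 10 TPM in 7 of 16 and 12 of 41 cells (1.62). The type I interferon response was lower in 19 of 28 measured genes, with a median of -0.35. That median was 0.21 among non-cycling and 0.08 in cells of like gene number. Usp18, its deubiquitinating feedback inhibitor, was above 10 TPM in 4 of 16 and 18 of 41 cells (-2.06), and Ifi27l2a differed by -1.42. Immediate early and stress genes, which respond to handling, were evenly divided, 11 of 22 higher with a median of 0.00.

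Nuclear genes of oxidative phosphorylation were higher in 42 of 44, all measured, beside 64.2% of all measured genes, with a median of 1.54. In contrast to the mitotic genes, this median stayed between 1.08 and 1.46 in cells of like gene number (1.08), in non-cycling cells (1.4) and in cycling cells (1.46). The medians of all measured genes in these subsets were 0.08, 0.21 and 0.11. Summed over the list, TPM had a median of 13384.7 in the retaining and 10278.5 in the other cells. Ndufv2, a subunit of complex I, had the largest difference of any named gene outside the 3 proteases, 4.60. It ranged from 3.14 to 702 TPM (median 378) in the retaining cells and from 0 to 1069 TPM (median 0) in the others, and lay above 10 TPM in 15 of 16 and 16 of 41 cells. Non-cycling cells had a median of 277 TPM with proteases and 0 without. In cells with Mki67 or Top2a above 100 TPM the Ndufv2 difference was 1.45. Ndufa5 (3.0), of complex I, and Sdha (2.76), of complex II, were higher as well.

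**Figure D4:**
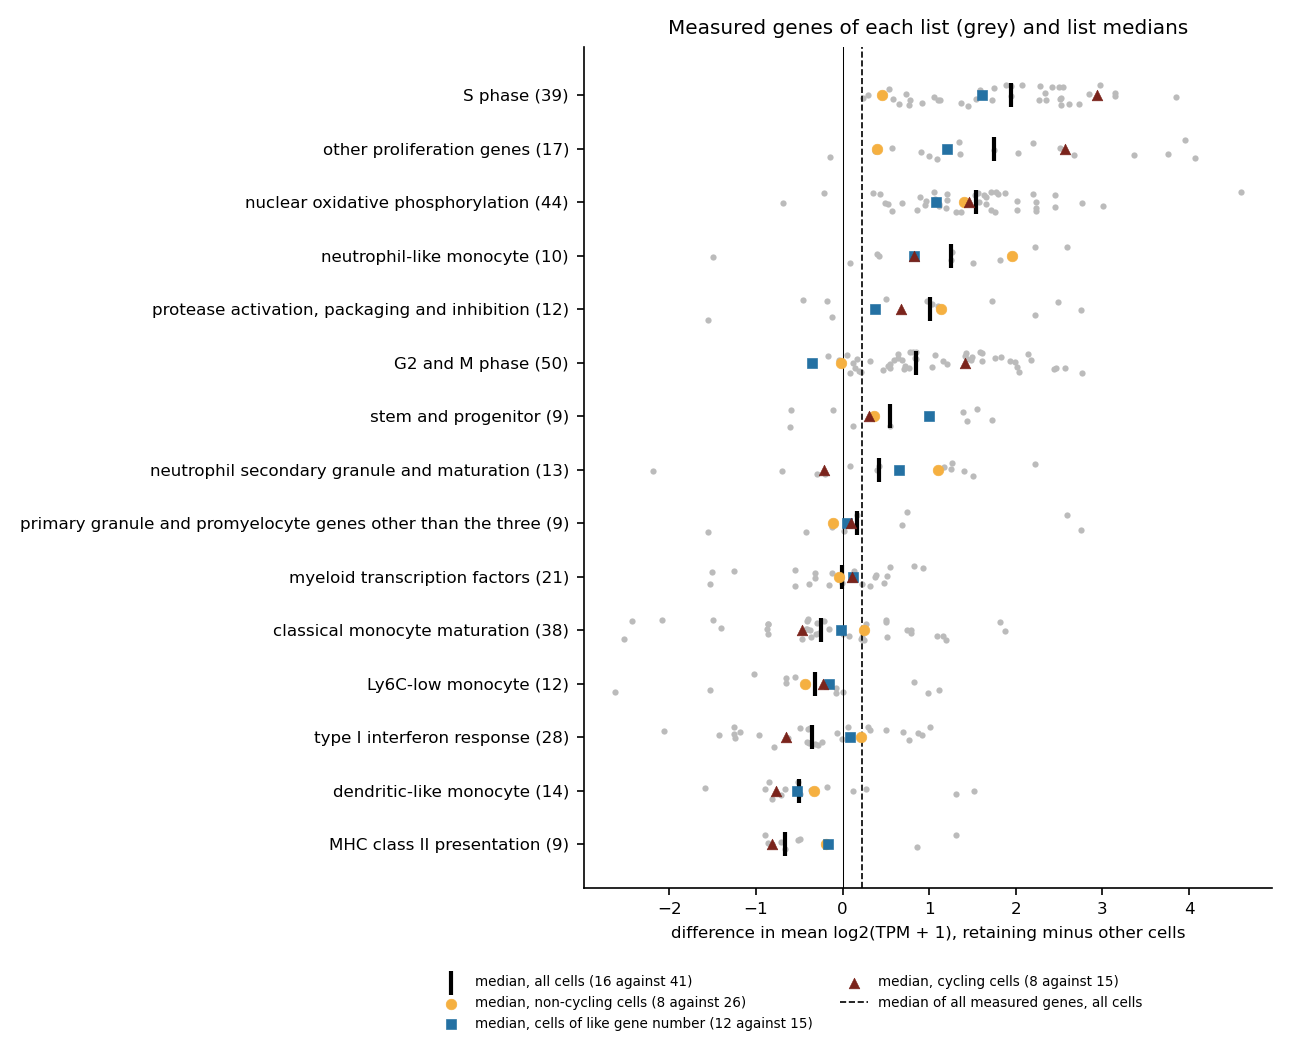
Differences in mean log2(TPM + 1), retaining minus other cells, for the measured genes of 15 lists (grey points, number in parentheses), with list medians over all cells and in 3 subsets. S phase and oxidative phosphorylation medians lie to the right of the median of all genes (dashed, 0.22) in each subset, whereas the G2 and M median lies at or below 0 in non-cycling cells and in cells of like gene number.

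Among the 12 largest positive differences were also genes of metabolism and RNA handling. Pgk1, a glycolytic kinase, was above 10 TPM in 15 of 16 and 17 of 41 cells (4.07), and Cwc15, a spliceosome protein, in 15 of 16 and 15 of 41 (3.91). Plp2, a membrane proteolipid, was above 10 TPM in all 16 (102 to 2639 TPM, median 1071) and in 29 of 41 (median 277), a difference of 3.74 that was 4.2 among non-cycling cells. Tuba4a (3.84), Mad2l1 of the spindle checkpoint (3.79) and Pa2g4, a growth-regulated nucleolar protein (3.69), complete the group. Ass1, the argininosuccinate synthase of arginine synthesis, ranged from 0 to 1053 TPM (median 162) in the retaining cells and from 0 to 624 TPM (median 0) in the others, a difference of 3.88. In the 6 cells with 2 or 3 proteases it lay between 126 and 1029 TPM, and in the 10 with 1 its median was 10.7 TPM.

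Ranked by Spearman correlation with the summed TPM of the 3 proteases over the 57 cells, among 6574 genes that exceeded 1 TPM in 25% of the cells or more, the first genes were Naa10 (0.59), Ass1 (0.57), Usp25 (0.53), Vps41 (0.53) and Tmem181b-ps (0.52). Naa10 encodes an N-terminal acetyltransferase, Usp25 a deubiquitinase and Vps41 a subunit of the tethering complex of late endosomes. Tmem181b-ps is named as a pseudogene and may share reads with its parent gene. These values describe the 57 cells, of which 37 tie at 0 for the proteases, and the cells differ in gene number.

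Of the lists of other cell types, those for basophils and mast cells and for eosinophils had no measured gene. Of the B cell markers, Ighm was abundant in both sets, above 10 TPM in 13 of 16 retaining (median 587 TPM) and 33 of 41 other cells (median 319 TPM), while 5 of the 9 B cell genes were listed at 0 in all 57 cells. Cd79b reached 327 TPM in 1 retaining cell and 30.9 TPM in the others. Mrc1, a macrophage receptor, was listed at 220 TPM in 1 retaining cell and at most 4.07 TPM in the others. Cd24a, taken here as a dendritic cell marker, was above 10 TPM in 5 of 16 and 6 of 41 cells and differed by 1.29. The T and NK cell, erythroid and platelet lists had 3, 1 and 1 measured genes.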

How the data were processed

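Single-cell mRNA of 161 cells in 3 sorted populations was analysed from 1 deposited table of TPM, which the authors made with RSEM 1.2.19 on GRCm38, per the submitters' processing notes. The aligner is not given in the sources used here, and neither is the annotation. Columns summed to 997939 to 999955 TPM, 0 columns lacked a sample, and depth is unknown. Values were compared as log2(TPM + 1), without a test. Measured genes lay above 1 TPM in at least 10% of the 57 BM monocytes.

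The named genes are the 3 proteases, Mpo, Ms4a3 and the gate genes, the 12 largest differences in each direction (above 1 TPM in at least 50% of the higher set, without predicted, mitochondrial, ribosomal, microRNA and snoRNA genes), up to 4 genes of each of 25 lists, markers of other cell types averaging over 10 TPM, and the 5 genes most like the proteases. Some genes that the rule names are not reported here. Cells and lists were chosen with earlier results of these data known. Cells of like gene number had 4685.5 to 5759 genes above 1 TPM, the 10th to 90th percentile of the retaining cells. Alternatives covered the threshold, each protease alone, pseudocounts, filters, scaling, cycling cells, gene number and each retaining cell left out. The function for the difference was run on simulated data, in which each gene was drawn independently from the other cells. Unequal gene number and correlation between genes were not simulated. Python 3.11.15, numpy 2.4.6, pandas 2.3.3 and scipy 1.17.1 were used.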

Additional observations from a re-analysis of the deposited data

How the results depend on the processing

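The 24 genes named for the size of their difference had the same direction in all 16 settings in which they were recomputed, except for 2 of them in non-cycling cells of like gene number (7 against 4 cells) and 3 in cells with Mki67 or Top2a above 100 TPM (7 against 6). These genes were picked as the largest differences in the same cells, so a kept direction adds no independent support. Hpgd, Rasgrp4 and Msr1 were short of 2 units as reported. Past 2 units lay 10 of the 24 as the ratio of mean TPM and 13 with a pseudocount of 10. The number was 15 in cells of like gene number, 11 in cells above 100 TPM and 24 with a pseudocount of 0.1. The S phase median had the same direction in 18 of 18 settings. Restricting the retaining set changed its size to 10 (Elane alone), 10 (Prtn3 alone) and 6 cells (Ctsg alone, and at least 2 proteases), with 83.3% cycling in both sets of 6. The genes higher and lower by 2 units (471 and 15) numbered 1138 and 109 for at least 2 proteases, 1183 and 100 for Ctsg alone, 1302 and 78 with a pseudocount of 0.1, 36 and 2 with a pseudocount of 10, 926 and 1323 as the ratio of mean TPM, and 735 and 58 without cycling cells. The count higher was 275 with a threshold of 1 TPM, and the count lower was 42 for Elane alone, 35 for Prtn3 alone and 90 in cells of like gene number. Leaving out 1 retaining cell at a time gave 423 to 526 and 14 to 20 genes. The G2 and M median was -0.35 in cells of like gene number and -0.0195 without cycling cells. The secondary granule median was -0.12 for Prtn3 alone, -0.0855 as the ratio of means, 1.12 with a pseudocount of 0.1 and 1.10 without cycling cells. The median of the other primary granule genes was -0.0477 for Elane alone, -0.13 for Ctsg alone, -0.37 as the ratio of means and -0.11 without cycling cells. The classical monocyte median was 0.25 without cycling cells. The median of all genes was 0.46 with a pseudocount of 0.1 and -0.11 as the ratio of means. Settings chosen after seeing the data gave 838 and 185 genes and a secondary granule median of -0.21 in cycling cells only, and 990 and 432 genes and a G2 and M median of -0.78 in cells with Mki67 or Top2a above 100 TPM. In cells of like gene number without cycling cells they gave 1072 and 687 genes, and medians of -0.0477 (G2 and M), 0.15 (classical), 0.81 (MHC class II) and 1.21 (secondary granule). The cause of these shifts was not tested. TPM without depth limits what a value of 0 can show. No paired analysis was possible because the result comes from no test and the cells carry no animal or pair.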
